A study of Rattus norvegicus with 52 samples.

Results

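The genes described are 9 genes of fatty acid synthesis and its transcriptional control in rat kidney: Srebf1, Insig1, Acaca, Fasn, Elovl6, Scd1, Scd2, Fads1 and Fads2. They were chosen by name, and every probe set with one of these symbols or an older alias on the RAE230A and RAE230B chips was taken. The rat gene now called Scd was taken as Scd1 through its gene identifier. The 9 genes, of 13810 named on the arrays, had 16 probe sets, of which 10 passed the filter on dim signal. Srebf1 and Fasn passed with 2 of 2 probe sets each, and Insig1, Fads1 and Fads2 with their 1 probe set. Acaca and Elovl6 passed with 1 of 2, Scd2 with 1 of 4, and Scd1 had no probe set that passed.

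Fatty acids are built from acetyl-CoA. Acetyl-CoA carboxylase (Acaca) makes malonyl-CoA, and fatty acid synthase (Fasn) joins these units into a saturated chain. Elovl6 lengthens the chain, the stearoyl-CoA desaturases Scd1 and Scd2 put in its first double bond, and Fads1 and Fads2 desaturate dietary polyunsaturated fatty acids. Srebf1 encodes SREBP-1, a transcription factor held in the endoplasmic reticulum until it is moved to the Golgi and cut. Its relative SREBP-2 mainly serves cholesterol synthesis, and Insig1 encodes the membrane protein that retains both precursors when sterols are plentiful. Insig1 is itself a target of the SREBPs.

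The animals were males of the inbred Dahl SS/Jr strain (S), in which dietary salt raises blood pressure, and of the congenic strains ET3x1 and ET3x2, in which a segment from the salt-resistant R strain lies on the S background. All 26 were weaned at 30 days to food with 0.4% NaCl, and at 39 to 41 days part of each strain was changed to 4% NaCl for 24 hours, so that the rats were 40 to 42 days old at death. On each diet there were 5 S, 4 ET3x1 and 4 ET3x2 rats. RNA of the whole left kidney of 1 rat was hybridised to 1 chip of each type, giving 52 arrays. A whole kidney mixes many cell types, so fewer cells of a type and less RNA per cell cannot be told apart. The low and high salt diets were separate commercial products.

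The deposited values are log2 signals with near-equal array medians, 7.47 to 7.52 on RAE230A and 6.34 to 6.40 on RAE230B. Each difference is a log2 change ± the standard error of a limma fit to all 26 rats, and a probe set is called where limma's Benjamini-Hochberg adjusted p, over 15473 probe sets, is below 0.05. Gapdh control signal at the 3' end over that at the 5' end (as a log2 ratio, a measure of how complete the labelled RNA was) differed little with salt in S (0.83 ± 0.07 (SD, n = 5) on low and 0.81 ± 0.05 (SD, n = 5) on high salt). In ET3x1 it was 0.88 ± 0.10 (SD, n = 4) on low and 0.59 ± 0.03 (SD, n = 4) on high salt, and in ET3x2 0.95 ± 0.07 (SD, n = 4) and 0.75 ± 0.11 (SD, n = 4). The ET3x1 difference had an exact permutation p of 0.0286, two-sided, the smallest that 4 against 4 rats allow, and 0.0952 after adjustment over 27 such tests. The same ratio for beta-actin had means in S of 1.14 ± 0.26 (SD, n = 5) on low and 0.92 ± 0.17 (SD, n = 5) on high salt, with overlapping groups. In ET3x1 it was 1.22 ± 0.24 (SD, n = 4) and 0.61 ± 0.10 (SD, n = 4), and in ET3x2 1.05 ± 0.22 (SD, n = 4) and 0.88 ± 0.16 (SD, n = 4). For beta-actin the exact permutation p was 0.159 in S, 0.0286 in ET3x1 and 0.286 in ET3x2. After adjustment these were 0.268, 0.0952 and 0.406.

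The sequences before the transcription starts of the gene with the largest salt response (Scd2), of a regulator called in S (Insig1) and of the dim relative of Scd2 (Scd1) are shown for comparison. The RefSeq table (GRCr8) held 7 promoters for 6 of the 9 genes. Capitals mark matches on either strand to CCAAT (the NF-Y box), CACGTG (the E-box) and GGGCGG (the Sp1 box); the motifs do not overlap one another in these sequences. Each run is the 250 bases before the start, 5′ to 3′ on the gene's own strand, at chr4:8057770-8058019 (minus strand) for Insig1, chr1:253118127-253118376 (plus strand) for Scd2 and chr1:253231732-253231981 (minus strand) for Scd1.
Insig1: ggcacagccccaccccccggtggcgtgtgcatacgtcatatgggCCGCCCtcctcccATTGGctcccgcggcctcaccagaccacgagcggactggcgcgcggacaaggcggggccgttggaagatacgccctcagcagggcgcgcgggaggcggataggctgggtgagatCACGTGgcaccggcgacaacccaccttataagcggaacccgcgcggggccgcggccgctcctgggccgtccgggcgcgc
Scd2: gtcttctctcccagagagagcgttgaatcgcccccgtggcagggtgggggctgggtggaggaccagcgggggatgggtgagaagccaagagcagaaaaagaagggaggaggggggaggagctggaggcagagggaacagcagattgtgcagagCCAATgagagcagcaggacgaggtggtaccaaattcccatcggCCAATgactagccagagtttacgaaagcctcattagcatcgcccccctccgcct
Scd1: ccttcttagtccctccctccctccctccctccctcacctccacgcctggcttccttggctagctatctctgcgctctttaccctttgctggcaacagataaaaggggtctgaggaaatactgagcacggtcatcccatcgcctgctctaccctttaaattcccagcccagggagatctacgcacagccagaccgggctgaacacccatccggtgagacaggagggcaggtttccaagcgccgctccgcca
Scd2 held 2 NF-Y boxes, 97 to 93 and 54 to 50 bases before the start. Insig1 held 1 NF-Y box on the opposite strand 193 to 189 bases before the start, an E-box 79 to 74 bases before it and an Sp1 box on the opposite strand 206 to 201 bases before it. Scd1 held none of the 3 motifs. Over the 7 promoters, 5 held CCAAT, against 34.02% of all 33469 promoters in the table, 5 held GGGCGG (30.47% of all) and 1 held CACGTG (5.593% of all). The classical sterol regulatory element TCACNCCAC was in 0 of 7 and in 0.974% of all.

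High salt in S rats was compared with low salt to ask how the salt-sensitive kidney responds within a day. Insig1, Scd2 and 1 probe set of Srebf1 rose, that is 3 of the 10 tested probe sets, and none fell. Over all probe sets tested 2.78% were called in this comparison, and in 3.54% the low and high salt groups did not overlap. All 10 changes lay above 0, with a median of 0.22, against a median of 0.03 over all probe sets.

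Insig1 (1367894_at) read 8.58, 9.19, 9.05, 8.96 and 9.05 in the 5 S rats on low salt and 10.02, 9.96, 9.33, 9.53 and 9.81 in the 5 on high salt. All high salt rats were above all low salt rats. The change was 0.76 ± 0.13, or 1.70-fold (limma adjusted p = 0.00146), with 5 of 5 high salt rats above the low salt mean. It remained called whichever of the 26 rats was left out, at changes of 0.67 to 0.86 and adjusted p-values up to 0.0087.

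Scd2 (1367668_a_at) read 8.05, 8.27, 8.24, 8.32 and 8.62 in S rats on low salt and 10.15, 9.77, 8.73, 8.81 and 8.92 on high salt. The groups did not overlap, but high salt rats 1 and 2 stood well above the other 3. The change was 0.97 ± 0.25, or 1.97-fold (limma adjusted p = 0.0306), and 5 of 5 high salt rats were above the low salt mean. The call was lost without high salt rat 1 (0.76, adjusted p = 0.103) or 2 (0.85, 0.0986) and without low salt rat 1 (0.91, 0.0842), 2 (0.97, 0.0625) or 4 (0.98, 0.0770). A second, dimmer probe set of Scd2 (1386889_at), below the filter, changed by 0.39 ± 0.11 in the same comparison. Its groups overlapped, and it was not called in a fit without the filter (limma adjusted p = 0.0843).

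Srebf1 (1371104_at) read 7.53, 7.76, 7.95, 7.77 and 7.74 in S rats on low salt and 8.26, 8.20, 7.78, 8.10 and 8.19 on high salt. High salt rat 3 lay inside the low salt range and the other 4 above it. The change was 0.35 ± 0.09, or 1.28-fold (limma adjusted p = 0.0293), with 5 of 5 high salt rats above the low salt mean. The other Srebf1 probe set (1388426_at) changed by 0.23 ± 0.10, which was not called (adjusted p = 0.231). The call was lost, at changes of 0.30 to 0.36 and adjusted p-values of 0.0539 to 0.0994, without high salt rat 1, 2, 4 or 5 or low salt rat 1, 2 or 4. With the beta-actin 3' to 5' ratio as a covariate, Insig1 remained called (0.79 ± 0.14), while Scd2 (1.01 ± 0.27, adjusted p = 0.0558) and Srebf1 (0.31 ± 0.09, 0.0950) kept about their size but missed the threshold. With the Gapdh ratio as the covariate the 3 calls held.

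No other enzyme was called with salt in S. Fasn changed by 0.17 ± 0.10 and 0.20 ± 0.08 on its 2 probe sets, and Acaca by 0.08 ± 0.08. Of the desaturases for polyunsaturated chains, Fads2 changed by 0.29 ± 0.11 and Fads1 by 0.19 ± 0.11. None of these was called (adjusted p = 0.142 to 0.640).

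**Figure D1:**
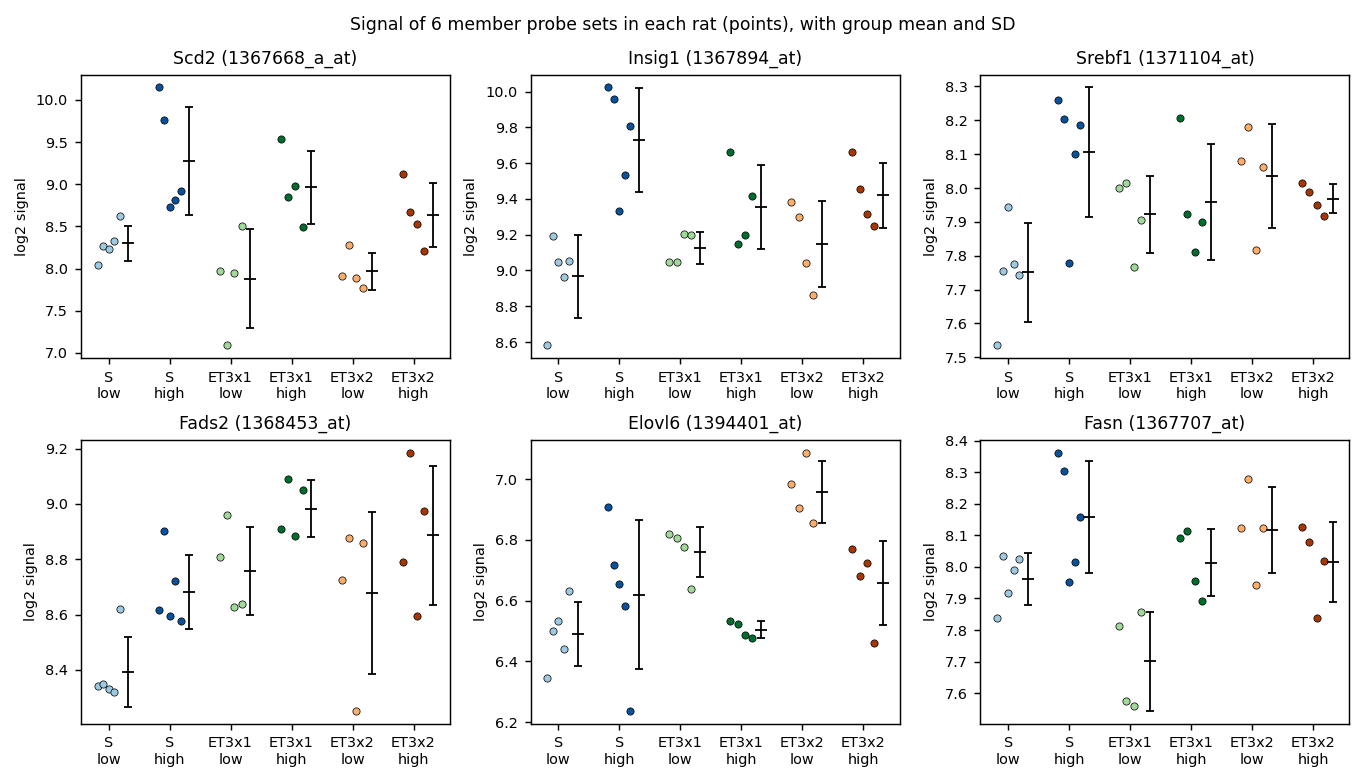
Log2 signal of 6 probe sets of the 9 genes in each rat (points) by strain and diet, with the group mean and SD beside the points; the vertical axes differ between panels. The 5 S rats on high salt lie above the 5 on low salt for Scd2 and Insig1, and the mean of Elovl6 is highest in the 4 ET3x2 rats on low salt.

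In ET3x1 rats on high against low salt, Scd2 and 1 probe set of Fasn rose, 2 of the 10 tested probe sets, and none fell. Over all probe sets tested 15.9% were called, so the members' share was close to that of the whole arrays. Groups without overlap were also common here, in 20% of all probe sets tested. Scd2 (1367668_a_at) read 7.98, 7.09, 7.95 and 8.51 on low salt and 9.53, 8.85, 8.98 and 8.49 on high salt. The lowest high salt rat lay just below the highest low salt rat, so the groups touched. The change was 1.09 ± 0.28, or 2.12-fold (limma adjusted p = 0.00825), with 4 of 4 high salt rats above the low salt mean. Without low salt rat 2, whose 7.09 was the lowest Scd2 value of all rats, it was 0.82 (adjusted p = 0.0571).

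The dimmer Scd2 probe set (1386889_at) read 7.16, 6.89, 6.80 and 6.78 in ET3x1 on low salt and 7.53, 7.71, 7.77 and 7.79 on high salt. These groups did not overlap. The change was 0.79 ± 0.13, with a limma adjusted p of 0.000202 in a fit without the filter. In that fit it was the probe set of the 9 genes with the smallest p in ET3x1.

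Fasn (1367707_at) read 7.81, 7.57, 7.56 and 7.86 in ET3x1 on low salt and 8.09, 8.11, 7.96 and 7.89 on high salt, with no overlap. The change was 0.31 ± 0.09, or 1.24-fold (limma adjusted p = 0.0221), with 4 of 4 high salt rats above the low salt mean. The other Fasn probe set (1367708_a_at) changed by 0.23 ± 0.11 (adjusted p = 0.143). The 1367707_at call was lost without high salt rat 1 (0.29, adjusted p = 0.0556) or 2 (0.28, 0.0647) and without low salt rat 2 (0.27, 0.0895) or 3 (0.27, 0.0941). Insig1, called in S, changed by 0.23 ± 0.14 in ET3x1 (adjusted p = 0.288), and the Srebf1 probe sets by -0.06 ± 0.12 and 0.04 ± 0.10.

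The RNA ratios given above differed between the same 8 rats. With the Gapdh ratio as a covariate the Scd2 change in ET3x1 was 0.50 ± 0.41 (limma adjusted p = 0.651) and the Fasn change 0.16 ± 0.14 (0.672), so neither was called. With the beta-actin ratio they were 1.19 ± 0.38 (0.0669) and 0.23 ± 0.13 (0.289). The part of RNA quality in these changes cannot be told apart from that of salt in ET3x1, since the ratios of the 2 diets did not overlap there.

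In ET3x2 rats on high against low salt, 0 of the 10 tested probe sets were called by limma and 2 had an unadjusted p below 0.05. Over all probe sets tested 0.304% were called and 11.4% had an unadjusted p below 0.05. The 2 groups did not overlap in 6.62% of them. Scd2 (1367668_a_at) read 7.91, 8.28, 7.89 and 7.77 on low salt and 9.12, 8.67, 8.52 and 8.21 on high salt. A single high salt rat lay inside the low salt range, and the change was 0.67 ± 0.28 (adjusted p = 0.333). The dimmer Scd2 probe set (1386889_at) read 6.71, 6.95, 6.92 and 6.60 on low salt and 7.44, 6.96, 7.35 and 7.25 on high salt. These groups did not overlap, and the change was 0.46 ± 0.13 (adjusted p = 0.123 in the unfiltered fit). Insig1 changed by 0.27 ± 0.14 (adjusted p = 0.493). Elovl6 (1394401_at) read 6.98, 6.91, 7.09 and 6.85 on low salt and 6.77, 6.68, 6.72 and 6.46 on high salt, without overlap, for a change of -0.30 ± 0.10 (adjusted p = 0.185).

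**Figure D2:**
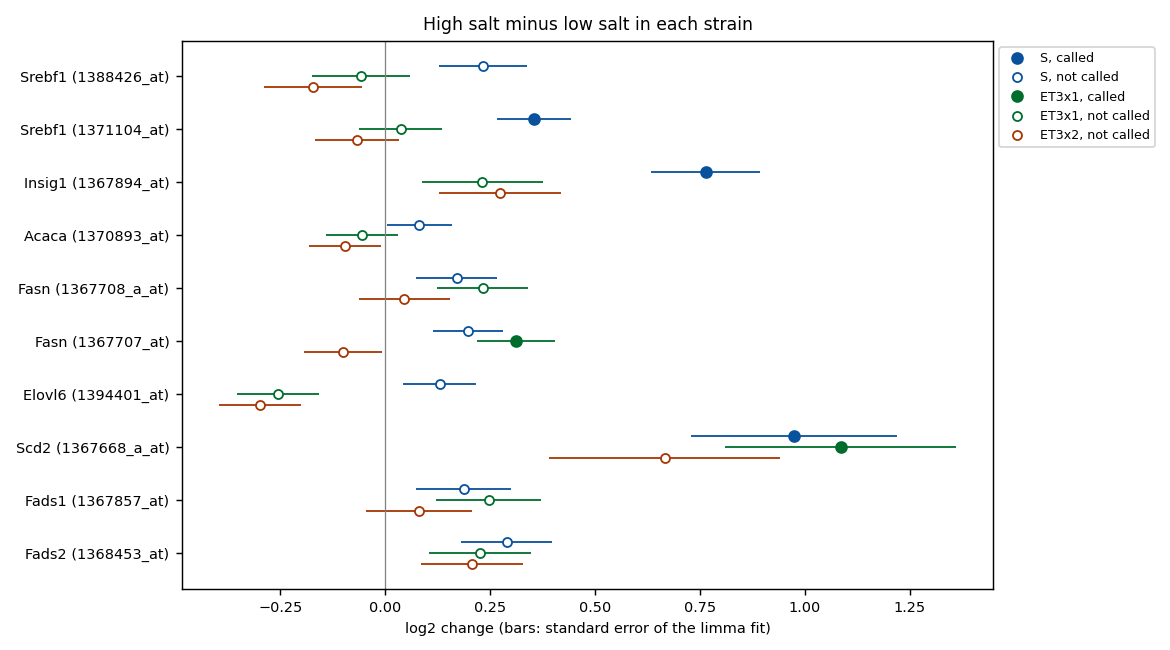
Log2 change from low to high salt ± standard error for the 10 tested probe sets in S, ET3x1 and ET3x2; filled points passed the adjusted p threshold. The Scd2 change lies between 0.67 and 1.09 in the 3 strains, while that of Insig1 is 0.76 in S and 0.23 and 0.27 in the congenic strains.

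Averaged over the 3 strains, a comparison added after the values were seen, salt raised Scd2, Insig1 and Fads2, 3 of the 10 probe sets, and lowered none. Of all probe sets tested 14.5% were called. The averaged change was 0.91 ± 0.15 for Scd2 (limma adjusted p = 0.00023), 0.42 ± 0.08 for Insig1 (0.000718) and 0.24 ± 0.07 for Fads2 (0.0163). The dimmer Scd2 probe set (1386889_at) changed by 0.55 ± 0.07 (adjusted p = 1.6e-05 in the unfiltered fit). The rate-limiting desaturase of polyunsaturated chains, Fads2, changed by 0.29 ± 0.11, 0.23 ± 0.12 and 0.21 ± 0.12 in S, ET3x1 and ET3x2, none of which was called alone. The Gapdh covariate took all 3 averaged calls away, at changes of 0.57 ± 0.24 for Scd2 (adjusted p = 0.388), 0.38 ± 0.13 for Insig1 (0.271) and 0.29 ± 0.11 for Fads2 (0.321). The beta-actin covariate took away that of Fads2 (0.16 ± 0.09, adjusted p = 0.343).

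Whether the salt response itself differed between strains was tested with interaction terms, which share groups with each other and with the responses above. For ET3x1 minus S, 0 of the 10 were called by limma (5.49% of all probe sets tested). An unadjusted p below 0.05 was reached by 3, against 22.8% of all. The Insig1 response was lower in ET3x1 than in S by -0.53 ± 0.19 (limma adjusted p = 0.101), and that of Elovl6 (1394401_at) by -0.38 ± 0.13 (0.0790). For ET3x2 minus S, 0 were called (0.0194% of all) and 5 had an unadjusted p below 0.05 (8.98% of all). All 10 of these differences lay below 0, with a median of -0.30 against -0.02 over all probe sets. They use the same S rats whose 10 salt changes lay above 0. The Insig1 difference was -0.49 ± 0.19 (limma adjusted p = 0.438). For ET3x2 minus ET3x1, 0 were called (0.304% of all) and 1 had an unadjusted p below 0.05 (14.9% of all). This was Fasn (1367707_at) at -0.41 ± 0.13 (limma adjusted p = 0.143). The Scd2 response differed by 0.11 ± 0.37 for ET3x1 minus S and by -0.31 ± 0.37 for ET3x2 minus S. Salt responses of the 9 genes were therefore not shown to differ between strains, which does not show that they were alike.

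The dim probe sets account for the rest of the salt data. Scd1 (1370355_at), whose product is the desaturase most studied in liver and fat, had a mean of 6.30 against a filter of 7.51. It read 6.66, 6.44, 6.20, 6.35 and 6.31 in S rats on low salt and 6.14, 6.13, 6.14, 6.23 and 6.21 on high salt. On high salt 3 rats lay under the lowest low salt rat and the other 2 just above it, a change of -0.22 ± 0.07 that was not called in the unfiltered fit (limma adjusted p = 0.131). In ET3x1 and ET3x2 it was 0.07 ± 0.08 and -0.02 ± 0.08. The remaining Scd2 probe sets, 1398016_at and 1388253_at, changed by between -0.03 and 0.27 with salt, and the second Acaca probe set (1387538_at) by between 0.02 and 0.12.

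The 2 Elovl6 probe sets gave changes of the same sign in the congenic strains and of opposite sign in S. The one on RAE230A (1388108_at) had a mean of 7.49, just under the filter, and changed with salt by -0.15 ± 0.06 in S, -0.03 ± 0.07 in ET3x1 and -0.17 ± 0.07 in ET3x2. The one on RAE230B (1394401_at) changed by 0.13 ± 0.09, -0.26 ± 0.10 and -0.30 ± 0.10. The difference between the probe sets was not tested. Results on Elovl6 are therefore given by probe set.

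The strains were compared on each diet to ask what the R segment changes. None of the 9 genes could be placed relative to the segment from the labels. They lie on chromosomes 1 (Scd1, Scd2, Fads1, Fads2), 2 (Elovl6), 4 (Insig1) and 10 (Srebf1, Acaca, Fasn) of GRCr8.

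On low salt, Elovl6 and both Srebf1 probe sets were higher in ET3x2 than in S, 3 of the 10 tested probe sets, and none was lower. The share called over all probe sets tested was 18.2%, and the share without overlap of the 2 groups was 12.4%. Elovl6 (1394401_at) read 6.98, 6.91, 7.09 and 6.85 in ET3x2 and 6.35, 6.50, 6.53, 6.44 and 6.63 in S. All ET3x2 rats were above all S rats. The difference was 0.47 ± 0.09, or 1.38-fold (limma adjusted p = 0.00132), it held with every rat left out in turn, and 4 of 4 ET3x2 rats were above the S mean. The other Elovl6 probe set (1388108_at) differed by 0.01 ± 0.06.

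Srebf1 (1388426_at) read 8.59, 8.68, 7.93 and 8.40 in ET3x2 and 7.84, 7.90, 8.12, 8.13 and 8.19 in S on low salt. ET3x2 rat 3 lay inside the S range and the other 3 above it. The difference was 0.37 ± 0.11 (limma adjusted p = 0.0222), with 3 of 4 ET3x2 rats above the S mean. The second probe set (1371104_at) differed by 0.28 ± 0.09 (0.0357), with 4 of 4 above the S mean. The calls rested on single rats: the first was lost without ET3x2 rat 1 (0.30, adjusted p = 0.107) or 2 (0.27, 0.116) or S rat 1 (0.32, 0.0622) or 2 (0.33, 0.0547). The second was lost without ET3x2 rat 1, 2 or 4 or S rat 1, 2, 4 or 5, at differences of 0.23 to 0.29 and adjusted p-values of 0.0506 to 0.130. In the same rats the spike-in difference bioD minus bioC, a hybridisation measure, had a mean of 2.83 ± 0.11 (SD, n = 5) for S and 2.29 ± 0.14 (SD, n = 4) for ET3x2, and its part in these calls was not tested. In ET3x1 this measure was 2.54 ± 0.24 (SD, n = 4) on low and 3.08 ± 0.15 (SD, n = 4) on high salt, without overlap. On high salt it was 2.37 ± 0.70 (SD, n = 5) in S and 2.67 ± 0.18 (SD, n = 4) in ET3x2. Its part in the other comparisons was not tested either.

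On high salt, 0 of the 10 were called for ET3x2 against S (4.25% of all probe sets tested). An unadjusted p below 0.05 was reached by 4, against 21.9% of all. Elovl6 (1394401_at) differed by 0.04 ± 0.09 and the Srebf1 probe sets by -0.04 ± 0.11 and -0.14 ± 0.09. Scd2 (1367668_a_at) differed by -0.64 ± 0.26 (limma adjusted p = 0.144) and Fads1 by -0.33 ± 0.12 (0.107).

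ET3x1 against S on low salt gave 3 called probe sets of the 10, Fads2 and Elovl6 higher and Fasn lower. Over all probe sets tested 26.8% were called, so the share was near that of the arrays as a whole. Groups without overlap made up 19.7% of all probe sets tested. Fads2 (1368453_at) read 8.81, 8.96, 8.63 and 8.64 in ET3x1 and 8.34, 8.35, 8.33, 8.32 and 8.62 in S. The groups did not overlap, though the highest S rat came close to the lowest ET3x1 rat. The difference was 0.37 ± 0.12, or 1.29-fold (limma adjusted p = 0.0204), with 4 of 4 ET3x1 rats above the S mean, and it was 0.30 (adjusted p = 0.0942) without ET3x1 rat 2.

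Elovl6 (1394401_at) read 6.82, 6.81, 6.78 and 6.64 in ET3x1 on low salt, all above the highest S rat, the lowest of them only just. The difference was 0.27 ± 0.09 (limma adjusted p = 0.0315), with 4 of 4 above the S mean. The call was lost without S rat 1 or 4 or ET3x1 rat 1, 2 or 3 (0.23 to 0.26, adjusted p = 0.0603 to 0.0867). The RAE230A probe set of Elovl6 went the other way, by -0.17 ± 0.06. Fasn (1367707_at) was lower by -0.26 ± 0.09 (limma adjusted p = 0.0294), with 4 of 4 below the S mean, while its other probe set differed by -0.13 ± 0.10. The Fasn call was lost with the arrays centred on their medians (-0.23, adjusted p = 0.0502), with the Gapdh covariate (-0.23, 0.0524), and without S rat 2, 4 or 5 or ET3x1 rat 2 or 3 (-0.25 to -0.21, 0.0532 to 0.114).

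On high salt 0 of the 10 were called for ET3x1 against S (14.5% of all probe sets tested). Only 2 had an unadjusted p below 0.05, against 29.3% of all. These were Insig1 at -0.38 ± 0.14 (limma adjusted p = 0.0642) and Fads2 at 0.30 ± 0.12 (0.0776). Fads2 lay above S on both diets, and Insig1 did not lie below S on both, with 0.16 ± 0.14 on low salt.

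Between the congenic strains, 1 of the 10 probe sets was called on low salt, where Fasn (1367707_at) was higher in ET3x2. In this comparison 2.73% of all probe sets tested were called, and 9.55% had groups without overlap. Fasn read 8.12, 8.28, 7.94 and 8.12 in ET3x2 against 7.81, 7.57, 7.56 and 7.86 in ET3x1, without overlap. The difference was 0.42 ± 0.09, or 1.33-fold (limma adjusted p = 0.0133), with 4 of 4 ET3x2 rats above the ET3x1 mean. The second Fasn probe set differed by 0.01 ± 0.11. The call was lost without ET3x1 rat 3 (0.37, adjusted p = 0.0668) or ET3x2 rat 2 (0.36, 0.0575). On high salt 0 of the 10 were called (9.22% of all), and 1 had an unadjusted p below 0.05 (26.0% of all). Fasn (1367707_at) differed by 0.00 ± 0.09 there.

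The dimmer Scd2 probe set (1386889_at) was compared between strains in the unfiltered fit. On low salt it was lower than in S in ET3x2 (-0.45 ± 0.12, limma adjusted p = 0.0125), without overlap, and in ET3x1 (-0.33 ± 0.12, 0.0440). On high salt it was lower in ET3x2 than in ET3x1 (-0.45 ± 0.13, limma adjusted p = 0.0305), again without overlap. In that comparison 18.1% of all probe sets tested had groups without overlap. The brighter Scd2 probe set gave -0.33 ± 0.26, -0.42 ± 0.26 and -0.33 ± 0.28 in the same comparisons, none called. Another dim Scd2 probe set (1398016_at) was higher in ET3x1 than in S on high salt (0.31 ± 0.10, limma adjusted p = 0.0377 in the unfiltered fit).

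**Figure D3:**
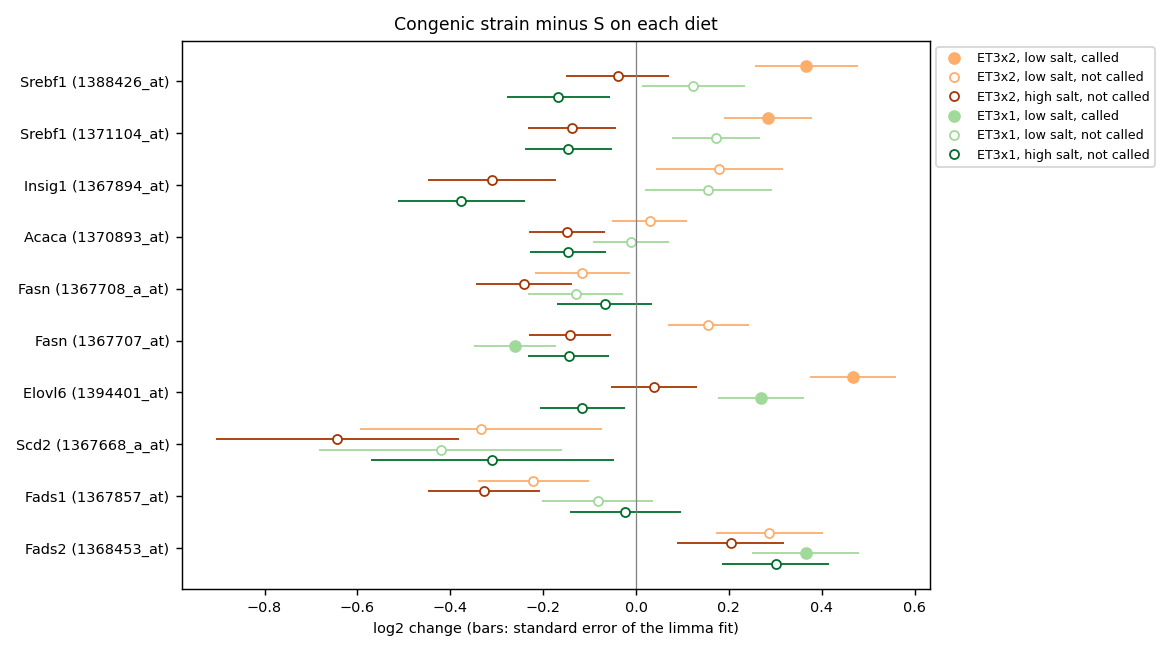
Log2 difference of ET3x2 and ET3x1 from S ± standard error on each diet for the 10 tested probe sets; filled points passed the adjusted p threshold. The called differences are those on low salt: Elovl6 in both strains (0.47 and 0.27), both Srebf1 probe sets in ET3x2 (0.37 and 0.28), and Fads2 (0.37) and 1 Fasn probe set (-0.26) in ET3x1.

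Related genes were read from 5 lists, each gene by its probe set of highest mean. Of 14 tested targets of SREBP-2 in cholesterol synthesis, 7 rose with salt in S and none fell, with a median change of 0.30 against 0.04 over 8744 genes, of which 200 rose and 44 fell (2.79% called). The largest rises in S were Idi1, the isopentenyl diphosphate isomerase (0.87 ± 0.15, limma adjusted p = 0.00146), Cyp51, the lanosterol demethylase (0.79 ± 0.17, 0.0111), and Sqle, squalene epoxidase (0.64 ± 0.10, 0.0004). In ET3x1 7 rose and 1, Mvd, fell (-0.33 ± 0.11, limma adjusted p = 0.0336), with a median of 0.28 against -0.04 over all genes, of which 431 rose and 819 fell (14.3% called). Sqle (0.83 ± 0.11), Idi1 (0.80 ± 0.16) and the methylsterol monooxygenase Msmo1 (0.46 ± 0.12) led there. In ET3x2 2 of the 14 rose, Idi1 (0.77 ± 0.16, limma adjusted p = 0.0297) and Sqle (0.54 ± 0.11, 0.0199), where 34 of all genes rose and 6 fell (0.457% called).

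The list of SREBP handling, which holds Srebf2, Scap and the proteases, had 9 tested genes and no call with salt in S or ET3x1. In ET3x2 Pgrmc1, a haem-binding membrane protein that binds Insig1 and Scap, rose by 0.52 ± 0.11 (limma adjusted p = 0.0297), and on low salt it was lower in ET3x2 than in S by -0.66 ± 0.10 (0.000215). Srebf2 changed by 0.12 ± 0.04 averaged over the strains (limma adjusted p = 0.0337). Of 10 tested genes that supply acetyl-CoA, NADPH or lipogenic signals, 0 were called with salt in S, ET3x1 or ET3x2. Their medians were 0.10, -0.05 and 0.05. On low salt the mitochondrial citrate carrier Slc25a1 was higher in ET3x1 than in S (0.71 ± 0.14, limma adjusted p = 0.00116), as was the liver X receptor Nr1h2 (0.60 ± 0.17, 0.0112). These were 2 of the 10, where 29.9% of all genes were called. For ET3x2 against S on low salt, the comparison of Pgrmc1 above, the share of all genes was 22.4%.

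Among 7 other elongation and desaturation genes, 1 was called with salt: Elovl1, an elongase of very long chains, fell in ET3x1 (-0.35 ± 0.11, limma adjusted p = 0.0343), a share near the 14.3% of all genes. Elovl1 was higher in ET3x1 than in S on low salt (0.42 ± 0.11, limma adjusted p = 0.0067), and Fads3, the third gene of the Fads family, was higher in ET3x2 than in S (0.36 ± 0.07, 0.00175). Each was 1 of 7 genes in its comparison on low salt, where 29.9% and 22.4% of all genes were called. Of 17 genes that use fatty acids in glycerolipids, Pnpla3 rose (0.49 ± 0.07, limma adjusted p = 8.9e-05) and Gpat4 fell (-0.31 ± 0.08, 0.0134) with salt in ET3x1, and 0 were called in S or ET3x2; 2 of 17 is again near the share of all genes in ET3x1. Pnpla3, a lipid droplet protein and known SREBP-1 target, responded more in ET3x1 than in S (0.38 ± 0.10, limma adjusted p = 0.0257) and less in ET3x2 than in ET3x1 (-0.60 ± 0.11, 0.0305). Of all genes 5.82% and 0.172% were called for these 2 differences. On low salt Dgat1, which makes triglyceride, was higher than in S in ET3x1 (0.43 ± 0.11, limma adjusted p = 0.00763) and in ET3x2 (0.58 ± 0.11, 0.00123). In those comparisons 29.9% and 22.4% of all genes were called. Averaged over the strains, where 13.8% of all genes were called, Idi1 (0.81 ± 0.09), Sqle (0.67 ± 0.06) and Cyp51 (0.51 ± 0.10) led the sterol targets, of which 9 rose and 1 fell. Pgrmc1 (0.24 ± 0.06), Acsl4 (0.24 ± 0.07) and Pnpla3 (0.16 ± 0.04) also rose in the average, and Elovl1 (-0.21 ± 0.06) and Lpin2 (-0.20 ± 0.06) fell. The ET3x1 salt values stand beside the RNA ratio difference given above, whose part in them was not tested.

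Differences of list genes between strains are given beside the share called over all genes. For ET3x1 against S on low salt, where 29.9% of all genes were called, 2 of the 14 sterol targets were called, Mvk higher (0.29 ± 0.08) and Sqle lower (-0.35 ± 0.10). The glycerolipid list had 3 of 17, Dgat1, Gpat4 (0.30 ± 0.08) and the lipid droplet coat protein Plin2 (0.17 ± 0.06), all higher. On high salt, with 12.6% of all genes called, 2 glycerolipid genes were higher and 3 lower, led by Mgll, a monoglyceride lipase (0.40 ± 0.10), and the phosphatidate phosphatases Lpin1 (-0.39 ± 0.08) and Lpin2 (-0.38 ± 0.10).

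For ET3x2 against S on low salt, where 22.4% of all genes were called, Ebp (0.37 ± 0.10) and Mvd (0.36 ± 0.10) were higher and Sqle lower (-0.33 ± 0.10) among the sterol targets. The malonyl-CoA decarboxylase Mlycd was higher (0.33 ± 0.09), as were 3 glycerolipid genes, with Dgat1 and Gpat4 (0.23 ± 0.08) the largest, while Acsl4, an acyl-CoA synthetase, was lower (-0.65 ± 0.12). On high salt, with 3.73% of all genes called, Sqle (-0.44 ± 0.10), Elovl2 (-0.46 ± 0.11) and Pnpla3 (-0.28 ± 0.07) were lower. Against ET3x1, Pgrmc1 was lower in ET3x2 on low (-0.66 ± 0.11) and high salt (-0.36 ± 0.11) and Acsl4 on low salt (-0.57 ± 0.13), where 3.39% and 6.34% of all genes were called. On high salt Pnpla3 (-0.51 ± 0.07), Elovl2 (-0.43 ± 0.12) and Lss (-0.33 ± 0.10) were also lower than in ET3x1, and Lpin1 (0.32 ± 0.09), Fads3 (0.27 ± 0.08) and Lpin3 (0.27 ± 0.08) higher. The salt response of Gpat4 was lower in ET3x1 than in S (-0.39 ± 0.11, limma adjusted p = 0.0423), where 5.82% of all genes were called.

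**Figure D4:**
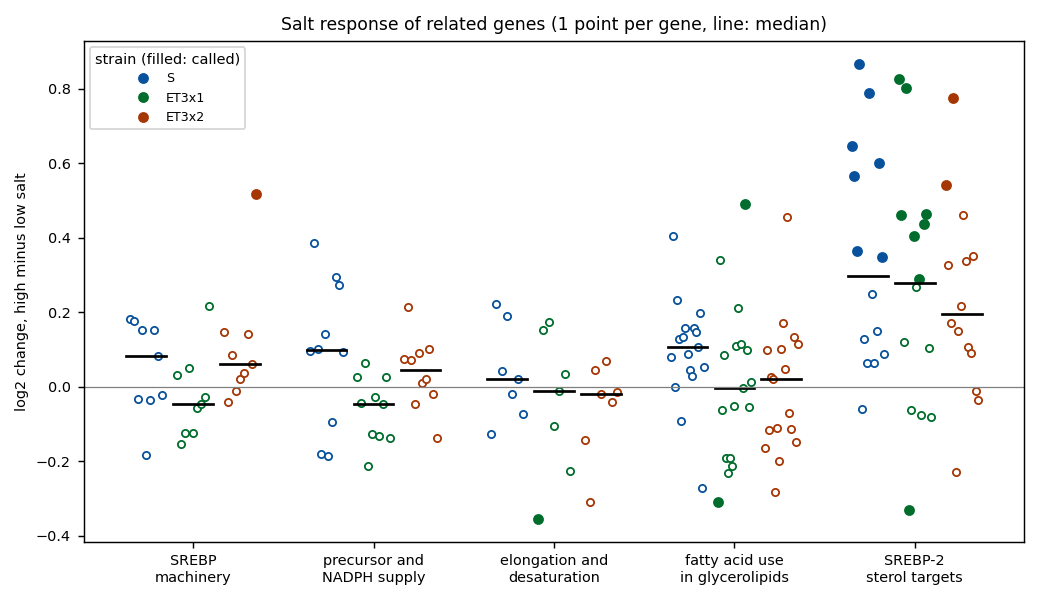
Log2 change from low to high salt of each tested gene of 5 related lists in S, ET3x1 and ET3x2 (1 point per gene, black lines: list medians); filled points passed the adjusted p threshold. The sterol targets have medians of 0.30, 0.28 and 0.19, and the medians of the other 4 lists lie between -0.05 and 0.11.

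Variation from rat to rat was compared for 16 pairs of the 9 genes over 26 rats, each gene by its probe set of highest mean. Insig1 and Scd2 went together most closely (Pearson r = 0.78, permutation p = 2.0e-05, 0.00032 after adjustment; Spearman rho = 0.72, permutation p = 8.0e-05, 0.00128 after adjustment). Without the 2 rats farthest from the Insig1 median r was 0.64. Within the 13 high salt rats r was 0.79 and within the 13 low salt rats 0.14; neither these values nor their difference was tested.

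Insig1 also went with Fasn (r = 0.66, permutation p = 0.00022, adjusted 0.00176; rho = 0.58, permutation p = 0.00206, adjusted 0.011) and Fads1 (r = 0.60, permutation p = 0.00162, adjusted 0.00864; rho = 0.59, permutation p = 0.00169, adjusted 0.011). Without the 2 farthest rats both gave 0.53. On high salt these were 0.79 and 0.60 and on low salt 0.18 and 0.25. Srebf1 and Insig1 gave r = 0.48 (permutation p = 0.0141, adjusted 0.0453; rho = 0.50, permutation p = 0.0103, adjusted 0.0412), 0.59 without the 2 farthest rats, 0.83 on high salt and 0.54 on low salt. Acaca went with Insig1 less closely (r = 0.45, permutation p = 0.0206, adjusted 0.047; rho = 0.35, permutation p = 0.0790, adjusted 0.140), with 0.21 without the 2 farthest rats, 0.85 on high salt and 0.26 on low salt.

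Other genes went against Insig1. Scd1 gave r = -0.51 (permutation p = 0.00774, adjusted 0.0310; rho = -0.39, permutation p = 0.0492, adjusted 0.0983), -0.40 without the 2 farthest rats, -0.30 on high salt and -0.70 on low salt. Elovl6, here by the probe set on RAE230A, gave r = -0.46 (permutation p = 0.0171, adjusted 0.0456; rho = -0.47, permutation p = 0.0169, adjusted 0.0542), -0.43 without the 2 farthest rats, 0.07 on high salt and -0.44 on low salt. For Acaca, Scd1 and Elovl6 rho did not pass after adjustment. Srebf1 and Scd2 gave r = 0.20 (permutation p = 0.323, adjusted 0.369; rho = 0.24, permutation p = 0.235, adjusted 0.290), and 0.43 without the 2 farthest rats. The rats share strains and diets, so part of each value is the difference between groups; with group means removed, Insig1 and Scd2 gave r = 0.66 and Srebf1 and Insig1 0.59.

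**Figure D5:**
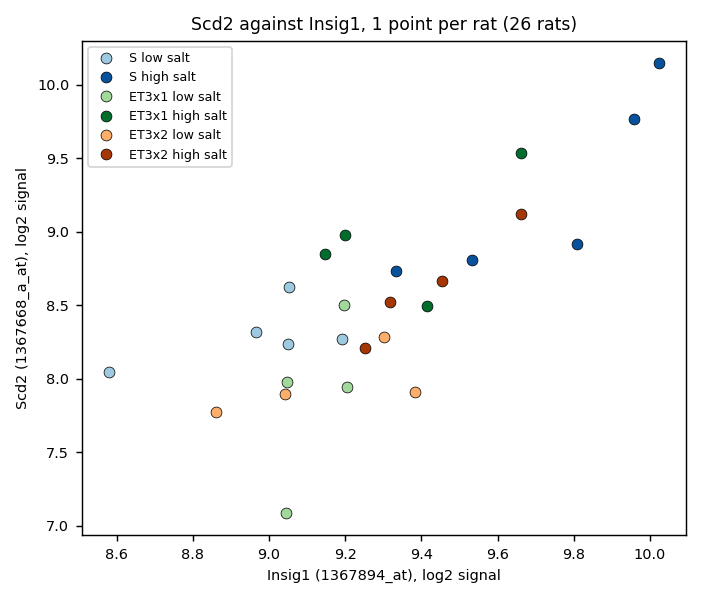
Log2 signal of Scd2 against Insig1, 1 point per rat, coloured by strain and diet. Low salt rats spread in Scd2 with little order in Insig1 (r = 0.14), while S rats 1 and 2 on high salt lie at the upper right and high salt rats as a whole give r = 0.79.

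Markers of kidney cell types were bright, with mean signals of 13.18 for Slc34a1 of the proximal tubule and 13.32 for Umod of the thick ascending limb. Fat around the kidney also makes fatty acids, and 10 of 11 fat cell markers were on the arrays. Of these 3 passed the filter and 0 were called by limma with salt in S, ET3x1 or ET3x2. Lipe, Cidec and Lpl, the 3 that passed, had means of 9.42, 8.37 and 8.14. Adipoq, Plin1, Cfd and Lep, defining fat cell genes, had means of 5.93, 5.82, 5.51 and 6.31, and Fabp4, Car3 and Ucp1 of 7.02, 7.33 and 6.77, all below the median of their chips. These dim markers were not tested. The means of Ucp1 moved between groups. On low and high salt they were 7.03 and 6.58 in S, 6.51 and 6.54 in ET3x1, and 7.50 and 6.43 in ET3x2. Lpl was lower in ET3x1 than in S on low salt (-0.21 ± 0.08, limma adjusted p = 0.0459) and Lipe higher on high salt (0.31 ± 0.10, 0.0454). The summed linear signal of the 10 markers ranged from 1810 to 2063 in S on low salt, 1775 to 2005 in S on high salt, 1817 to 2096 and 1994 to 2185 in ET3x1 on low and high salt, and 1985 to 2059 and 1851 to 2035 in ET3x2. The S groups overlapped. The leukocyte marker Coro1a rose with salt in S (0.53 ± 0.12, limma adjusted p = 0.0149), and Slc12a3 of the distal tubule fell with salt in ET3x1 (-0.50 ± 0.11, 0.00213). The other distal markers, Aqp2 and Calb1, were not called there. Their ET3x1 means were 11.69 and 12.05 on low salt and 11.60 and 12.20 on high salt.

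Cell type markers also moved with the strain differences. On low salt 4 of 4 tested leukocyte markers were higher than in S in ET3x1 and in ET3x2, where 29.9% and 22.4% of all genes were called. The summed signal of 5 leukocyte markers was 3532 to 4536 in S and 5021 to 6040 in ET3x1. In ET3x2 it was 4063 to 6395, which overlapped S. Both tested podocyte markers, Podxl and Synpo, were lower than in S in both congenic strains on both diets, by between -0.64 and -0.26. On high salt 12.6% of all genes were called for ET3x1 against S and 3.73% for ET3x2 against S. On low salt the summed signal of 3 podocyte markers was 1303 to 1485 in S, 921 to 1103 in ET3x1 and 1080 to 1228 in ET3x2. Of 2 tested endothelial markers, Kdr was lower than in S in both strains on both diets, by between -0.68 and -0.49. The other, Pecam1, was not called. Its means in S, ET3x1 and ET3x2 were 7.82, 7.97 and 7.89 on low salt and 7.77, 7.72 and 7.70 on high salt. Of 5 proximal tubule markers, Lrp2 and Cubn were lower in all 4 of these comparisons, and Slc34a1 and Slc5a2 were higher in ET3x1 on low salt. Slc12a1 of the thick ascending limb was lower in ET3x2 than in S on low salt (-0.74 ± 0.13, limma adjusted p = 0.0005). Umod of the same segment was not called there, with means of 13.31 in ET3x2 and 13.36 in S. The part of cell makeup in the differences of the 9 genes was not tested.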

How the data were processed

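Left kidney RNA of 26 male rats was hybridised to RAE230A and RAE230B chips, per the labels. The deposited log2 values had been normalized by the authors, by a method not given in the sources used here. Precision is limited by the number of arrays. Litters and batches are not in the labels, and replicate numbers only name rats. The 9 genes and all lists were chosen with earlier results of these data known.

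Control probe sets (57 per chip) were left out of the tests, as were probe sets with a mean below the chip median (7.51 and 6.38); 100 sets on both chips were tested on RAE230A. Each chip was fitted with limma 3.58.1 (R 4.3.3), 6 strain and diet groups, an intensity trend and 20 residual degrees of freedom. Benjamini-Hochberg adjustment ran over 15473 probe sets (7933 and 7540), and 13 comparisons were tested two-sided. Comparisons share groups. The fit was tested on simulated data.

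Every called probe set of the 9 genes is named, probe sets below the filter are given mainly for salt, and up to 3 called genes of largest change are named per pathway list and comparison. Symbols came from the platform annotation and RefSeq identifiers (GRCr8). Single values used exact permutation tests, and correlations 100000 permutations. Alternatives were quantile normalization, median centring, no filter, array weights, the groups compared alone, leaving out each rat, and the Gapdh 3' to 5' ratio as covariate; the beta-actin covariate and the average over strains were added after the values were seen.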

Additional observations from a re-analysis of the deposited data

Results flagged for a closer look

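Among 96 group and probe set combinations, 3 had 1 rat standing apart from the rest of its group; chance gives about 1 in 20. Srebf1 (1388426_at) read 8.30 in ET3x1 rat 1 on high salt, with the next at 8.05. Scd2 (1398016_at, a dim probe set) read 5.71 in ET3x2 rat 3 on low salt, with the next at 5.60. Fads2 (1368453_at) read 8.62 in S rat 5 on low salt, with the next at 8.35; leaving that rat out did not end the call of Fads2 in ET3x1 against S.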

How the results depend on the processing

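The number of called probe sets depended on settings, while no called change of the 9 genes reversed. Of 492 runs of such a change, 434 kept its call and 58 lost it. Many of these runs left out a rat of a group not compared, which cannot alter the size of the change. The kept runs therefore overstate how firm the calls were. List and marker genes were not run under the alternatives. For salt in S, 3 were called, 5 with array weights, 1 in a fit of those groups alone, 1 with the beta-actin covariate, and 1 to 3 when rats were left out (1 without high salt rat 1 or 2 or low salt rat 1, 2 or 4). For salt in ET3x1, 2 were called, 0 with either covariate, and 0 to 3 with rats left out (0 without low salt rat 2, 1 without high salt rat 1 or 2 or low salt rat 3). Salt in ET3x2 gave 0 throughout. The salt average gave 3, 0 with the Gapdh covariate and 3 to 4 with rats left out. ET3x1 against S on low salt gave 3, and 0 to 3 with rats left out (0 without ET3x1 rat 2, 1 without ET3x1 rat 3 or S rat 4). On high salt it gave 0, 1 with quantile normalization, without the filter or with the groups alone, 2 with array weights, and 0 to 1 with rats left out (1 without S high salt rat 3, S low salt rat 1, ET3x1 high salt rat 1 or ET3x2 low salt rat 3). ET3x2 against S on low salt gave 3, 1 with the groups alone, and 1 to 4 with rats left out (1 without S rat 1 or 2 or ET3x2 rat 1 or 2). On high salt it gave 0 and 1 with array weights. ET3x2 against ET3x1 on low salt gave 1, 2 with array weights, 0 with the groups alone, and 0 to 2 with rats left out (0 without ET3x1 rat 3 or ET3x2 rat 2, 2 without ET3x2 rat 3). On high salt it gave 0, 1 without the filter and 0 to 1 with rats left out (1 without ET3x2 rat 2). Differences of salt responses gave 0 and, with array weights, 3 (ET3x1 minus S), 2 (ET3x2 minus S) and 1 (ET3x2 minus ET3x1); the first gave 0 to 1 with rats left out (1 without S high salt rat 3 or 5). The cause of these changes was not tested. Dim probe sets, among them the only one of Scd1, limit what can be said of their genes. No paired analysis was possible because the labels give rats no number shared between groups.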

Other observations

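The genes whose signal followed the regulators most closely over the 26 rats were read from 11100 tested probe sets with 1 symbol, as a description. For Insig1 these were Cyp51 (Pearson r = 0.88), Msmo1 (0.87) and Idi1 (0.84, by another probe set than in its list), with 0.78, 0.43 and 0.42 within the low salt rats and 0.86, 0.86 and 0.81 within the high salt rats. For Srebf1 they were Nupr1 (0.83), a stress-induced nuclear protein, the sterol isomerase Ebp (0.78) and Hip1 (0.77), with 0.91, 0.93 and 0.92 on low and 0.59, 0.56 and 0.46 on high salt.

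For Scd1 they were Bmpr1a (0.84), Plpp4 (0.80) and Unc80 (0.79). For Scd2, added after the values were seen, they were the transferrin receptor Tfrc (0.94), Msmo1 (0.89) and Sqle (0.89). Tfrc gave 0.82 on low and 0.91 on high salt, and 0.92 without the 2 rats farthest from the Scd2 median. Rats share strain, diet and array, so these values are not independent of the group differences.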
